A study of Mus musculus with 8 samples.

Results

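Ahcy encodes adenosylhomocysteinase, the hydrolase of S-adenosylhomocysteine, and it was taken here with 8 other genes of the methionine cycle and its side branches: Ahcyl1, Ahcyl2, Mat2a, Mat2b, Mtr, Cbs, Adk and Mtap. The 9 genes stand among 22180 with a probe set of their own, and 8 of the 9 were measured, since no probe set in the platform annotation names Mat2a. Ahcy was selected on its fitted difference between the genotypes, one of the large increases in these data, and the others were chosen as genes of the same cycle with these results known. Where a gene had several probe sets the brightest by mean was taken, but for Ahcy both are given. The members' genotype differences are therefore given as a description, without a test. All 8 measured members passed the filter on low values.

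The samples were medulloblastomas, tumours of the cerebellum, harvested at postnatal day 15 from mice that received no treatment. The 4 Bcl2l1-deleted tumours had the genotype Math1-Cre/SmoM2/Bcl2l1 f/f and the 4 control tumours Math1-Cre/SmoM2, so both groups shared the Math1-Cre driver and the active Smoothened allele SmoM2. Math1 (Atoh1) directs Cre to granule neuron precursors, so cells outside that lineage keep Bcl2l1 in either group. A further label field reads deleted for all 8 samples, controls included, while the design text calls the controls wild type for Bcl2l1, and the groups were taken from the titles and the genotype field. The design text speaks of replicate animals, with 1 Affymetrix whole-transcript array for each tumour, and 4 arrays a group limit the precision. In bulk tumours, fewer cells of a type and less RNA per cell cannot be told apart.

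The methionine cycle turns methionine into S-adenosylmethionine (AdoMet), the methyl donor of most methyltransferases, and each methyl transfer leaves S-adenosylhomocysteine, which inhibits those enzymes until AHCY splits it into homocysteine and adenosine. Homocysteine is remethylated to methionine by methionine synthase (Mtr) or enters transsulfuration through cystathionine beta-synthase (Cbs), while adenosine kinase (Adk) removes the adenosine. A side branch uses AdoMet for polyamine synthesis, and Mtap recovers the methylthioadenosine that this leaves.

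Values are log2 RMA values, and differences are fitted log2 differences, deleted minus control. Their median over the 15526 tested genes was 0.17, and a difference called relative to the median gene has that value taken off. An adjusted p of 0.05 (limma, Benjamini-Hochberg) was passed by 1013 genes, or 6.52%, of which 765 were higher and 248 lower. At an unadjusted p under 0.05 stood 30.5% of the tested genes, 23.1% higher and 7.32% lower. At the adjusted level, the split of 765 higher and 248 lower became 1337 and 171 with arrays centred on the median of all probe sets. It was 390 and 699 at that level centred on the tested genes, and 274 and 405 once the receptor median given below entered the fit. Control replicate 2 stood apart, with correlations of 0.881 to 0.925 to the other arrays, against at least 0.956 among those. The median of the chemosensory receptor genes, whose signal in the cerebellum is taken as background, was 3.60 on that array. It was 2.94 to 3.09 for the remaining controls and 2.79 to 2.92 for the deleted group. Bcl2l1 itself was at 5.32 to 5.69 in the deleted group and 6.57 to 6.98 in the controls. It fell by 1.36 (SE 0.16, limma adjusted p = 0.00509), and that call held in the 20 alternative settings run. Of the 9 measured markers of granule neuron progenitors and hedgehog tumours 0 passed in either direction (limma), and their mean lay at 9.57 to 9.67 in the deleted group and 9.19 to 9.76 in the controls.

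The annotation gives the name Ahcy to 2 probe sets, and they behaved differently. Probe set 17330769, the brighter of them, stood at 8.92, 8.34, 8.35 and 8.22 in Bcl2l1-deleted replicates 1 to 4 and at 6.75, 5.60, 6.13 and 6.09 in control replicates 1 to 4. Every deleted tumour lay above every control, and the lowest value was on control replicate 2. The group means were 8.46 ± 0.32 (SD, n = 4) and 6.14 ± 0.47 (SD, n = 4), a difference of 2.32 (SE 0.25), or 4.98-fold, and 2.14 relative to the median gene. The difference was 2.14 without control replicate 2, the array that stood apart, and 2.14 to 2.52 over the fits that left out 1 array each. It was 1.95 after adjustment for the receptor median and 2.06 and 2.49 under the settings that centred the arrays.

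Probe set 17393207 stood at 3.40, 3.75, 2.63 and 2.49 in the deleted tumours and at 3.07, 2.10, 3.54 and 2.88 in the controls. The groups overlapped throughout. The means were 3.06 ± 0.61 (SD, n = 4) and 2.90 ± 0.60 (SD, n = 4), a difference of 0.16 with an SE of 0.37. On the single arrays this probe set lay between the 10.6th and the 78.6th percentile of the 1405 chemosensory receptor probe sets, within their range. The brighter probe set lay at percentile 92 on control replicate 2 and between 99.4 and 99.9 on the other arrays. The dimmer probe set was below the filter on low values, 4.38, and a difference in the transcript it measures may be missed at this signal and spread. The mean of both, the value that averaging a gene's probe sets would give, differed by 1.24.

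**Figure D1:**
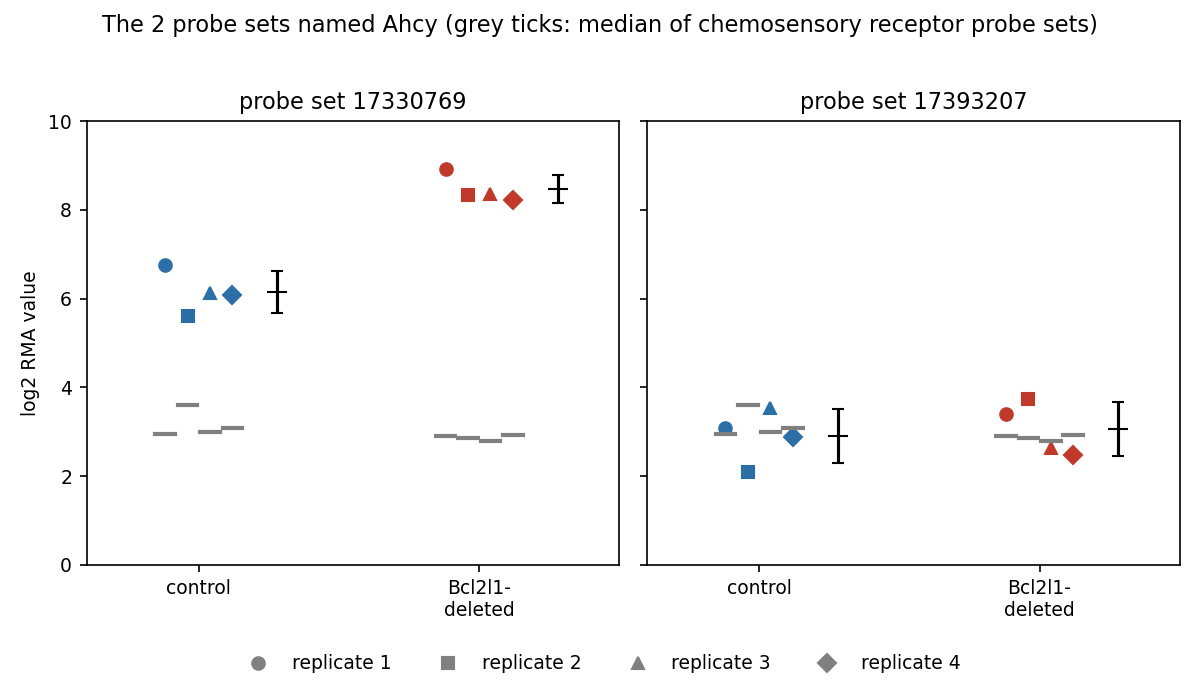
Log2 RMA value (y axis) of the 2 probe sets named Ahcy on each of the 8 arrays, by group (x axis), with the mean and SD in black and the receptor median of each array as a grey tick. Probe set 17330769 runs from 8.22 to 8.92 in the Bcl2l1-deleted tumours and from 5.60 to 6.75 in the controls, while 17393207 lies around the receptor medians in both groups.

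The numbers of the probe sets on this platform run by chromosome, while how closely they follow gene order along a chromosome was not measured. Of 22907 named probe sets whose neighbours in number order belong to genes of the same chromosome, 99.4% name a gene of that chromosome too, and 136 do not. The dimmer probe set lies in this order between Eif2s2 and 2310005A03Rik, neighbours of Ahcy on chromosome 2. The brighter probe set is among the 136. It lies between Cd96 and Nectin3, both on chromosome 16, where the RefSeq table (GRCm38.p6) lists 3 genes between that pair. One of them, the predicted gene Gm4737, is the only other gene in the table that shares a synonym (AL024110) with Ahcy. It spans 2093 bases in that table against 15188 for Ahcy. No probe set in the annotation names Gm4737, and probe sequences were not used here. Which of the transcripts the brighter probe set measures was therefore not tested, and its values are given below under the name in the annotation.

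The starts of these genes lie in different sequence. Both stretches below are the 250 bases before the transcription start as RefSeq gives them in GRCm38.p6, shown because they mark the loci that share the name, with CG dinucleotides in capitals. The Ahcy stretch is chr2:155074498-155074747 and the Gm4737 stretch chr16:46155078-46155327, both on the minus strand and printed 5′ to 3′.
Ahcy: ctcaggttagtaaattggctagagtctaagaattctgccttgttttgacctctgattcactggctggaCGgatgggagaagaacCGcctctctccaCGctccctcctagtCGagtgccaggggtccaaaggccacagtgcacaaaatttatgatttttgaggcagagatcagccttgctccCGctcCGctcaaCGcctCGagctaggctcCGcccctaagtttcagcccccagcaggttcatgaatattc
Gm4737: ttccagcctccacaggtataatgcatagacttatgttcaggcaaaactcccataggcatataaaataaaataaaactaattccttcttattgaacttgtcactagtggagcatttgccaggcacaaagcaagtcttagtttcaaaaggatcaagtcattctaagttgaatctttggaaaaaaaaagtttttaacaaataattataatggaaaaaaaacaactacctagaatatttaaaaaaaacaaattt
The Ahcy stretch holds 9 CG dinucleotides and 52.8% G and C, and the Gm4737 stretch 0 and 29.6%. Over all 32851 promoter stretches of this length the median is 6 CG dinucleotides and 52.4% G and C, and 40.3% hold as many as the Ahcy stretch. The longest run of bases that the pair shares in the same orientation is 7. That run was not set against other pairs of stretches, and the transcripts themselves were not compared.

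The genes around each place gave values that the choice of Ahcy had not used. Among the 10 nearest tested genes on each side of Ahcy on chromosome 2, 0 were higher and 1 was lower (limma adjusted p under 0.05), with 2 higher and 1 lower at an unadjusted p under 0.05. Over all tested genes 4.93% were called higher and 1.6% lower, and at the unadjusted level 23.1% were higher and 7.32% lower. The gene called lower was the noncoding RNA gene 2310005A03Rik, the next tested gene after Ahcy. It stood at 4.33, 4.63, 4.28 and 4.35 in the deleted tumours and at 4.89, 5.96, 5.13 and 5.22 in the controls, highest on control replicate 2. The groups did not overlap, and the difference was -0.90 (SE 0.22, limma adjusted p = 0.0402). The call was lost without any 1 of the deleted replicates (limma adjusted p = 0.0865 to 0.126), without control replicate 3 (0.0593) or 4 (0.0909), after adjustment for the receptor median (0.105) or the Xist level (0.0911), and in 2 further settings, without the filter on low values (0.0568) and with quantile normalization (0.0619). The median difference of these 20 genes was 0.02, against 0.17 over all tested genes. The number called lower was 4 without control replicate 2 and 0 without any 1 of the other arrays except control replicate 1, where it was 1.

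Bcl2l1, the gene deleted here, lies on chromosome 2 as well. RefSeq lists 72 genes between it and Ahcy, of which 35 were tested, and 0 of these passed (limma), with 4 higher and 3 lower at an unadjusted p under 0.05, the level that 30.5% of all tested genes reached. Their median difference was 0.07. They include the 10 nearest tested genes on the Bcl2l1 side of Ahcy, counted above, so the sets overlap.

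The genes around Gm4737 on chromosome 16 were a set chosen after the place of the brighter probe set was seen. Of 20 tested neighbours 2, or 10%, were higher and 0 lower (limma), against 4.93% and 1.6% of all tested genes. At an unadjusted p under 0.05, 6 were higher and 0 lower, against 23.1% and 7.32% of all tested genes (30.5% in either direction). Without overlap 7 were higher, or 35%, against 19% of all tested genes. The median difference of the 20 neighbours was 0.35, against 0.17 over all tested genes. Whether this set differs from all genes was not tested. Cip2a, whose protein inhibits the phosphatase PP2A, had means of 9.06 ± 0.08 and 8.10 ± 0.58 (SD, n = 4 each) in deleted and control tumours, a difference of 0.96 (SE 0.25, limma adjusted p = 0.0469). Ccdc80, which encodes a matrix protein, had means of 7.77 ± 0.03 and 6.83 ± 0.45 (SD, n = 4 each), a difference of 0.94 (SE 0.21, limma adjusted p = 0.0324). Both calls were lost without any 1 of the deleted replicates or without control replicate 3 or 4, with limma adjusted p up to 0.140 for Cip2a and 0.110 for Ccdc80, and after adjustment for the receptor median (0.119 and 0.102) or the Xist level (0.103 and 0.0536). Cip2a did not pass without the filter on low values (0.0652) or with the replicate number as a block in the fit (0.0529). The Ccdc80 difference was 0.57 with the mean of its probe sets and did not pass (0.0596). Nectin3, the next tested gene on one side, differed by -0.32 and Plcxd2, the next on the other, by -0.04, and neither passed (limma adjusted p = 0.272 and 0.934).

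**Figure D2:**
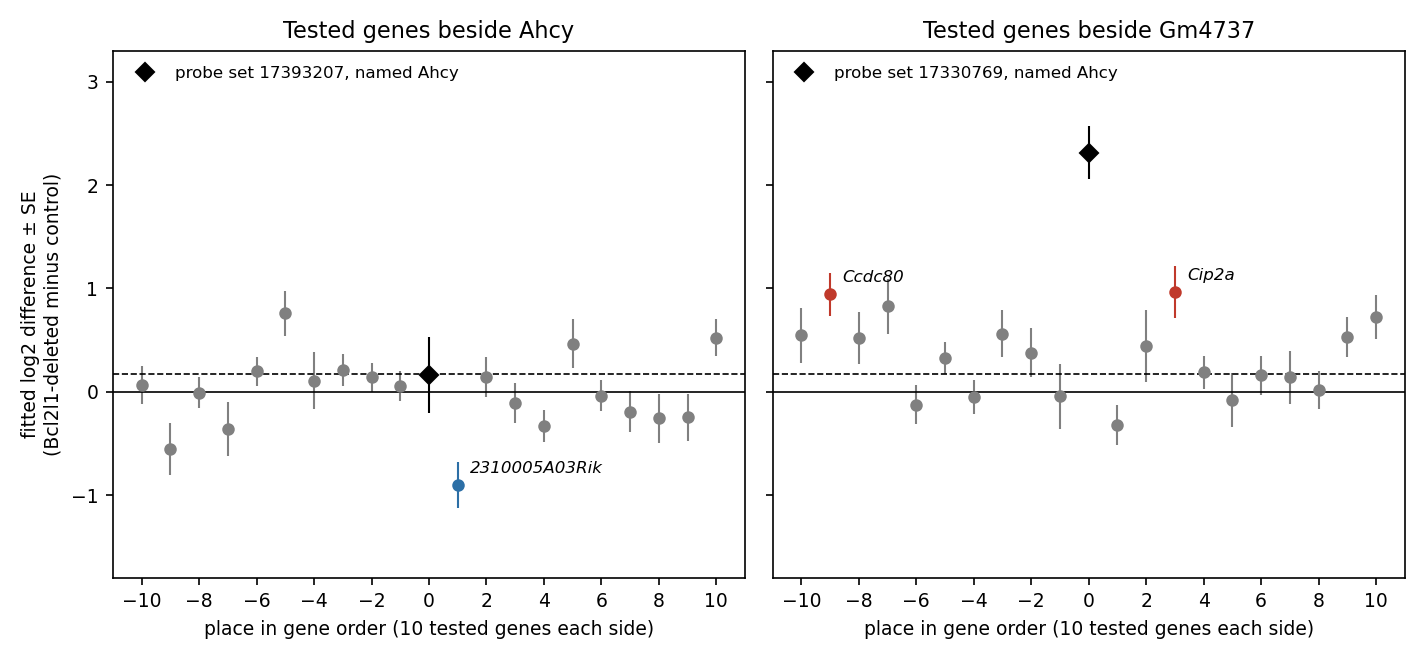
Fitted log2 difference, Bcl2l1-deleted minus control, with its SE (y axis) for the 10 nearest tested genes on each side of Ahcy (left) and of Gm4737 (right), by place in gene order (x axis), where red is called higher, blue called lower and the dashed line the median tested gene at 0.17. The diamonds are the 2 probe sets named Ahcy, placed by their number order, at 0.16 and 2.32.

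Ahcyl1 and Ahcyl2 encode proteins related to AHCY, and AHCYL1, known as IRBIT, binds the inositol trisphosphate receptor of the endoplasmic reticulum. Ahcyl1 stood at 9.87, 9.81, 9.97 and 9.65 in the deleted tumours and at 9.88, 9.16, 9.42 and 9.67 in the controls. The groups overlapped, with the lowest value on control replicate 2, and the difference of 0.29 (SE 0.18) was 0.17 without that array. It was 0.036 after adjustment for the receptor median and 0.034 with arrays centred on the tested genes. Ahcyl2 stood at 6.38, 6.41, 6.67 and 6.37 against 6.48, 6.32, 6.38 and 6.70, and its difference was -0.01 (SE 0.15). The lowest value was on control replicate 2 and the highest on control replicate 4, so the deleted tumours lay within the controls.

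Mat2b encodes the regulatory subunit of the AdoMet synthetase of most tissues, whose catalytic subunit Mat2a was not analysed here. Mat2b had the narrowest spread of the members, with 6.85, 6.87, 6.93 and 6.85 in the deleted tumours and 6.84, 6.93, 6.80 and 6.79 in the controls. The groups overlapped and differed by 0.04 (SE 0.13). Mtr, which returns homocysteine to methionine with vitamin B12 as cofactor, stood at 7.46, 7.86, 7.50 and 7.78 against 7.39, 7.21, 7.44 and 7.81. Its groups overlapped too, at a difference of 0.19 (SE 0.17). Cbs, the entry to transsulfuration, stood at 6.09, 6.20, 6.30 and 6.22 against 6.25, 5.80, 6.21 and 6.11, a difference of 0.11 (SE 0.15). Its lowest value was again on control replicate 2, and without that array the difference was 0.01. Centring the arrays on the tested genes turned the signs of the Mat2b, Mtr and Cbs differences (-0.22, -0.07 and -0.15), quantile normalization that of Mat2b (-0.08), and adjustment for the receptor median turned that of Cbs (-0.09). The sign for Ahcyl2 turned with arrays centred on the median of all probe sets (0.16) and with single arrays left out (-0.08 to 0.06).

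Mtap and Adk were the other members whose groups did not overlap. Mtap splits methylthioadenosine into adenine and a sugar phosphate from which methionine is rebuilt. It stood at 8.52, 8.20, 8.18 and 8.51 in the deleted tumours and at 7.46, 6.91, 7.68 and 7.48 in the controls. Every deleted tumour exceeded every control, and the lowest control was replicate 2. The difference was 0.97 (SE 0.19), or 1.96-fold, 0.80 relative to the median gene and 0.81 without control replicate 2. Over the 20 alternative settings it lay between 0.71 and 1.14.

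Adk phosphorylates adenosine to AMP. It stood at 9.04, 9.01, 8.91 and 8.86 in the deleted tumours and at 8.41, 7.85, 8.56 and 8.31 in the controls, again without overlap and lowest on control replicate 2. The difference was 0.67 (SE 0.17), or 1.59-fold. It was 0.50 relative to the median gene, 0.53 without control replicate 2 and 0.40 after adjustment for the receptor median.

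Ahcy, Mtap and Adk were thus the 3 of 8 measured members whose groups did not overlap, all higher in the deleted tumours. Over all tested genes 23.4% did not overlap, 19% higher and 4.46% lower. Ahcy was chosen for this contrast and the others were listed with it known, so nothing is read from the count. The median difference of the members was 0.24, against 0.17 for all tested genes. In order of difference the members ran from Ahcy (2.32) through Mtap (0.97), Adk (0.67), Ahcyl1 (0.29), Mtr (0.19), Cbs (0.11) and Mat2b (0.04) to Ahcyl2 (-0.01), and the neighbours from Ahcyl1 downwards were each within 1 SE of the next.

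Markers of several other cell types in the tumours moved with the same contrast. Calls here are at a limma adjusted p under 0.05, which 4.93% of all tested genes passed as higher and 1.6% as lower. Of 9 measured microglia markers 4 were higher and 0 lower, Aif1, Csf1r, C1qa and Ctss, and the mean of the list lay at 7.63 to 7.92 in the deleted tumours and 6.45 to 7.31 in the controls. Of 8 endothelial markers 5 were higher (mean 7.23 to 7.33 against 6.32 to 6.72), and of 7 fibroblast markers 4 (7.14 to 7.74 against 6.03 to 6.58), with 0 lower in either list. Of 10 markers of differentiating granule neurons 8 were lower and 0 higher (5.94 to 7.62 against 7.89 to 8.94). Oligodendrocyte markers had 2 of 9 called lower and 0 higher, and their means overlapped (6.25 to 7.68 against 7.32 to 8.67). Their Cnp went the other way, by 0.64, without passing (limma adjusted p = 0.142). Choroid plexus markers had 2 of 6 tested called lower and 0 higher (5.35 to 5.75 against 6.57 to 6.92). Markers of proliferating cells had 1 of 9 called higher (10.08 to 10.26 against 9.57 to 10.05). Of 4 measured erythroid markers 1 was tested and it did not pass. The part of these cells in the values of Ahcy, Mtap and Adk was not tested.

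**Figure D3:**
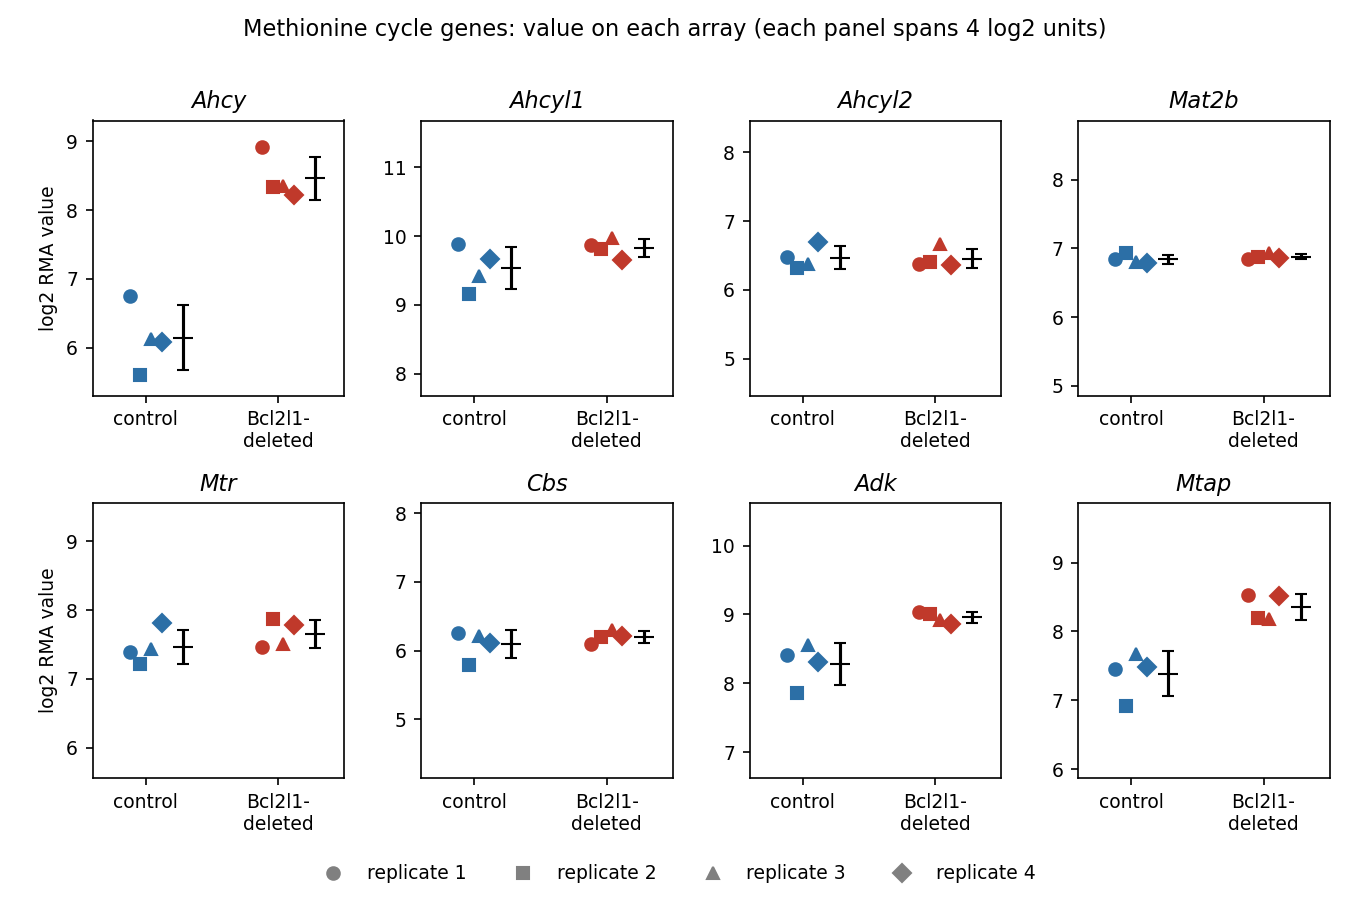
Log2 RMA value (y axis, 4 log2 units in every panel) of the 8 measured members on each array, by group (x axis), with the mean and SD in black. Ahcy is probe set 17330769. The groups are separate for Ahcy, Adk and Mtap and overlap for the other 5, and control replicate 2 (square) is the lowest array for every member shown except Mat2b.

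The wider pathway was followed in 9 lists of 84 genes around the cycle, none of them a member. Of these 76 had a probe set of their own and 71 were tested. Of the tested genes 4 passed (limma adjusted p under 0.05), all higher in the deleted tumours, which is 5.63% of those tested against 4.93% of all genes. None was lower, against 1.6% of all genes, and at an unadjusted p under 0.05, 24 were higher and 2 lower, against 23.1% and 7.32% of all genes. The median difference was 0.23, against 0.17 for all tested genes, and 33.8% were higher without overlap, against 19% of all genes. The number called higher moved with single arrays. Leaving out 1 of the deleted tumours gave 0 (replicate 1), 0 (replicate 2), 1 (replicate 3) and 1 (replicate 4), and leaving out 1 of the controls gave 12, 7, 2 and 1 in the same order. With control replicate 1 or 2 left out, 1 gene was lower.

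Of 16 tested genes of remethylation and the folate cycle, which supplies the methyl group for methionine, 2 were higher, 0 lower and 14 did not pass, and the list's median difference was 0.37. Aldh1l1, the cytosolic 10-formyltetrahydrofolate dehydrogenase and a marker of astrocytes, stood at 8.08, 8.18, 7.87 and 7.72 in the deleted tumours and at 7.50, 6.60, 7.13 and 7.04 in the controls. The groups did not overlap, and it rose by 0.89 (SE 0.20, limma adjusted p = 0.0333). The mean of 10 astrocyte and Bergmann glia markers lay at 9.17 to 9.57 in the deleted tumours and 8.27 to 9.29 in the controls, with 2 markers higher and 0 lower, and its part in the Aldh1l1 value was not tested. Slc25a32, the folate carrier of mitochondria, stood at 6.49, 6.58, 6.32 and 6.42 against 5.88, 5.64, 5.83 and 5.93. It rose by 0.63 (SE 0.14, limma adjusted p = 0.0324) without overlap. Shmt2, which makes methylene-tetrahydrofolate from serine in mitochondria, had means of 10.75 ± 0.16 and 10.33 ± 0.58 (SD, n = 4 each) and did not pass (difference 0.43, limma adjusted p = 0.271).

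Among 7 tested genes of polyamine synthesis and turnover 1 was higher, 0 lower and 6 did not pass, with a median difference of 0.42. The gene was Sat1, the acetyltransferase that starts the breakdown of spermidine and spermine. It stood at 8.22, 7.99, 8.18 and 8.10 in the deleted tumours and at 7.66, 6.64, 7.10 and 6.999 in the controls. Deleted and control tumours were separate, and it rose by 1.02 (SE 0.21, limma adjusted p = 0.0239). Srm, spermidine synthase, had a difference of 0.42 and did not pass (limma adjusted p = 0.0913).

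Among 7 tested small-molecule methyltransferases 1 was higher, 0 lower and 6 did not pass, with a median difference of 0.36. As3mt, which methylates arsenic, stood at 6.90, 6.90, 6.62 and 6.42 in the deleted tumours and in a narrow range, 5.75, 5.69, 5.87 and 5.78, in the controls. All 4 deleted tumours exceeded the controls, and it rose by 0.93 (SE 0.16, limma adjusted p = 0.0140). Gamt, which makes creatine, had a difference of 0.16 (limma adjusted p = 0.568).

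Each of these 4 calls depended on some of the arrays. Aldh1l1 and Slc25a32 lost theirs without any 1 of the deleted replicates or without control replicate 3 or 4 (highest adjusted p = 0.117 and 0.114), and Sat1 without any 1 of the deleted replicates or control replicate 4 (highest 0.0936). As3mt lost its call only without deleted replicate 1 (0.0692) or 2 (0.0636) among the 20 alternatives. After adjustment for the receptor median Aldh1l1, Slc25a32 and Sat1 did not pass (limma adjusted p = 0.0966, 0.0583 and 0.0564), nor after adjustment for the Xist level (0.0631, 0.0666 and 0.0589). Slc25a32 did not pass with arrays centred on the tested genes (0.0949). With the replicate number as a block in the fit, Aldh1l1 and Slc25a32 did not pass (limma adjusted p = 0.0566 and 0.0731).

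In the other 6 lists 0 of the 41 tested genes passed in either direction (limma), and 11 were higher and 2 lower at an unadjusted p under 0.05, a share near the 30.5% of all tested genes. The 8 genes of transsulfuration and glutathione synthesis had a median difference of 0.48. Gclm, the modifier subunit of the enzyme that starts glutathione synthesis, had a difference of 0.51 (adjusted p = 0.0818). The 7 genes of adenosine and purine salvage had a median of 0.35. Slc29a1, an equilibrative nucleoside transporter, had a difference of 0.35 (adjusted p = 0.171). The 5 genes of methionine salvage downstream of Mtap had a median of 0.16, with Got1 at 0.02, and the 5 methionine transporter genes a median of 0.11, with Slc7a5 at -0.09 (adjusted p = 0.961 and 0.659). The 3 genes of AdoMet synthesis and transport had a median of 0.19. Mettl16 of that list, an RNA methyltransferase that acts on the Mat2a transcript, differed by 0.33 (adjusted p = 0.121). Mat1a of the same list went the other way, by -0.57 (adjusted p = 0.0846), and its groups overlapped. Its group means, 4.41 in the deleted tumours and 4.97 in the controls, were near the filter value of 4.38. Mat1a is named after its value was seen and was not followed over the settings. The 13 tested methyltransferases of DNA, RNA and protein had a median of 0.12, below that of all tested genes, and Ezh2 differed by 0.13 (adjusted p = 0.507).

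The 6 related genes closest outside the threshold are named after their values were seen. Ada, adenosine deaminase, was at 5.57 to 6.10 in the deleted tumours and 4.96 to 5.45 in the controls (difference 0.64, limma adjusted p = 0.0504). Nt5e, the ectoenzyme CD73 that makes adenosine outside cells, had means of 7.54 ± 0.38 and 6.52 ± 0.54 (SD, n = 4 each), with no overlap (difference 1.02, limma adjusted p = 0.0519). Hnmt, which methylates histamine, was at 5.43 to 5.80 against 4.28 to 5.42 (difference 0.84, limma adjusted p = 0.0509). Odc1, the enzyme that starts polyamine synthesis, was at 9.51 to 9.81 against 8.86 to 9.47 (difference 0.58, limma adjusted p = 0.0653). Rnmt, the methyltransferase of the mRNA cap, was at 7.58 to 7.67 against 6.44 to 7.37 (difference 0.64, limma adjusted p = 0.0685). Kmt2a, a histone H3 lysine methyltransferase, was the gene of these lists that was lower without overlap, at 8.34 to 8.98 against 8.99 to 9.61 (difference -0.64, limma adjusted p = 0.0730). Some settings brought these genes past the threshold: without control replicate 2 the adjusted p (limma) was 0.0180 for Ada, 0.0466 for Nt5e and 0.0366 for Kmt2a, and without control replicate 1 it was 0.0263 for Nt5e and 0.0124 for Hnmt. After adjustment for the receptor median Ada passed as well (0.0372). Odc1 and Rnmt were not followed over the settings.

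**Figure D4:**
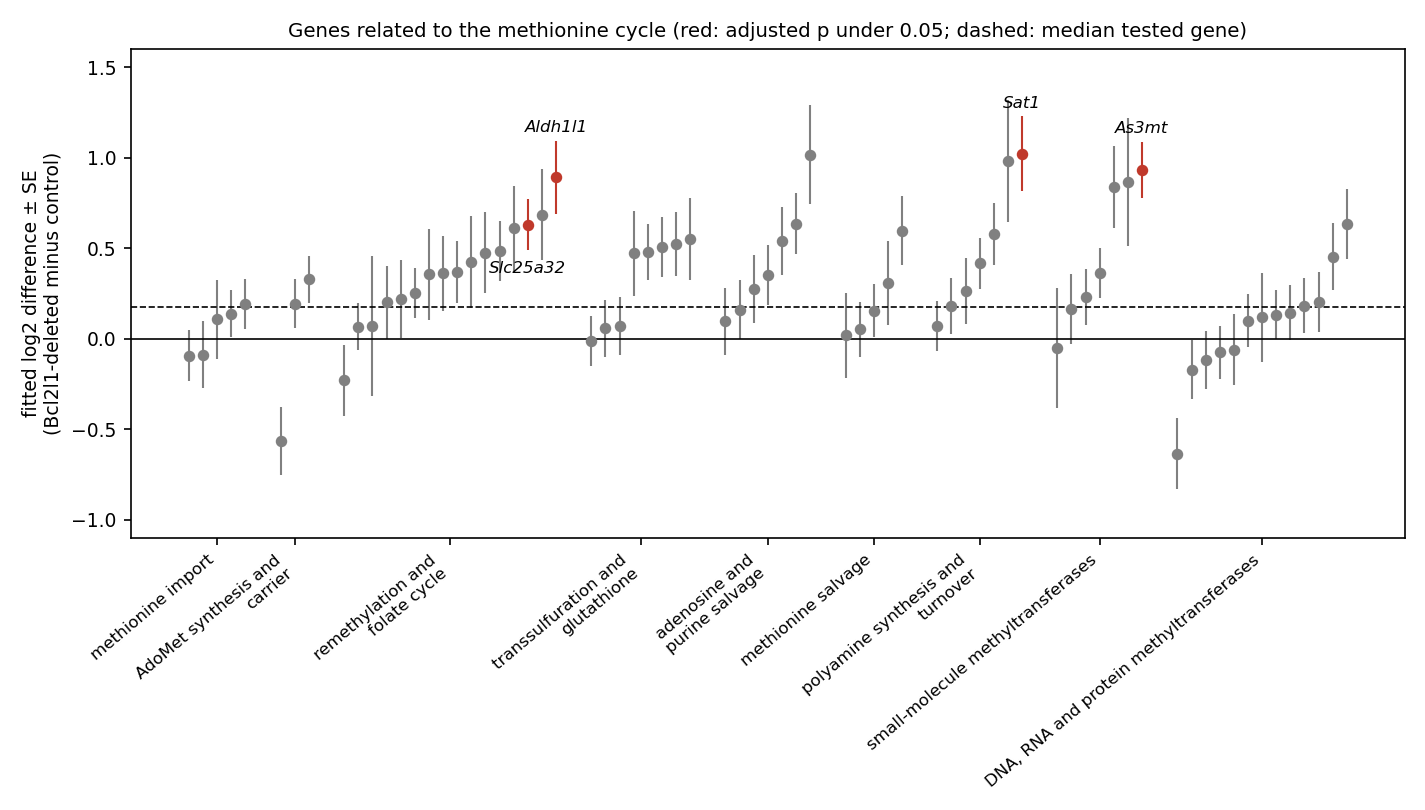
Fitted log2 difference, Bcl2l1-deleted minus control, with its SE (y axis) for the 71 tested genes of 9 lists around the methionine cycle (x axis, ordered by difference within each list). The 4 genes called higher are red and named, the dashed line is the median tested gene at 0.17, and most genes lie above 0 without being called.

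The genes whose values ran most nearly in parallel with the brighter Ahcy probe set were sought among all tested genes with an established symbol. By Pearson correlation over the 8 arrays, which share the genotype difference and the array background, the 5 named genes most like it were Il10rb (0.996), Lcp1 (0.995), Rasgef1b (0.992), Pla2g4a (0.988) and Cxcl16 (0.988). Il10rb encodes a receptor chain for interleukin 10, Lcp1 the actin-bundling L-plastin of leukocytes, Pla2g4a a cytosolic phospholipase and Cxcl16 a chemokine. All 5 were higher in the deleted tumours without overlap, by 0.68 to 1.41. That direction follows from their choice by likeness to a probe set selected for its genotype difference, so nothing is read from it. By deviations from the group means, which leave the genotype difference out, the closest genes were Cox18 (0.978), B3gnt9 (0.977), Mrpl54 (0.975), Rexo5 (0.975) and Ivd (0.973), of which Cox18 serves the assembly of cytochrome oxidase, Mrpl54 is a protein of the mitochondrial ribosome and Ivd breaks down leucine. Like Ahcy, each of these 5 was lowest among the controls on control replicate 2 and highest on control replicate 1, and highest among the deleted tumours on replicate 1. Such a shared order follows from the choice by correlation, so nothing is read from it.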

How the data were processed

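The authors deposited log2 values made by RMA in Partek, per the labels. RMA corrects background, normalizes and summarises probes, and differences near background come out compressed. Version, options and genome build: not given in the sources used here.

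Of 41345 probe sets, 23521 have 1 gene symbol in the platform annotation, 1814 several and 16010 none. Symbols were matched by Entrez identifier to a RefSeq table (GRCm38.p6), with 23328 matched, 193 not and 0 changed. That table gave names, synonyms, chromosomes, gene order and gene spans. Each gene took its probe set with the highest mean, and the dimmest genes by mean, up to the 30th percentile (4.38), were dropped, leaving 15526.

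Genotypes were compared with limma 3.58.1 in R 4.3.3 (lmFit, eBayes, no covariate, two-sided, Benjamini-Hochberg over all tested genes). Tested on simulated data of 15526 genes in this layout, it found 95% of 100 genes set to change by 2 log2 units and 53% of 100 set to change by 1, and it made 9 false calls. The simulated noise was independent for each gene, with no array that stood apart as control replicate 2 does. These rates may therefore not hold for the real arrays. Named related genes were all those past the threshold and the one with the highest mean among the others of each list. The likeness ranking left out predicted genes, small RNAs and chemosensory receptors. Members and lists were chosen with earlier results of these data known. The labels do not pair the replicate numbers. The p-values set each genotype difference against the spread between these animals, which eBayes moderates over all tested genes. Alternatives were other filters, priors, scalings, covariates, a replicate block and leaving out each array.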

Additional observations from a re-analysis of the deposited data

Results flagged for a closer look

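Of 60 groups of 4 arrays tested for a value far from the rest, 2 held one, and chance gives such a value in about 1 in 20. In the Bcl2l1-deleted group, replicate 3 had Ahcyl2 at 6.67, and the other arrays lay at 6.37 to 6.41. Shmt2 stood at 9.46 on control replicate 2, against 10.54 to 10.66 on the other controls.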

How the results depend on the processing

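The difference of Ahcy stayed between 1.95 and 2.52 in all settings that kept probe set 17330769, and between 2.14 and 2.52 with single arrays left out. It was 1.24 with the mean of the probe sets of a gene and 0.16 with the other Ahcy probe set, a setting chosen after seeing the data. The genes past the threshold numbered 548 without the filter on low values, 3494 with array weights, 200 with the Xist level as a covariate and 508 with the replicate block, and 20 to 2100 with single arrays left out. Higher related genes numbered 8 with arrays centred on the median of all probe sets, 16 with array weights, 2 with the receptor median as a covariate, 1 with Xist and 2 with the replicate block, and 0 to 12 with single arrays left out. Lower related genes numbered 1 with quantile normalization, 1 centred on the tested genes and 2 with array weights, and 0 to 1 with single arrays left out. Higher genes beside Ahcy numbered 1 centred on the median of all probe sets and 2 with array weights, and 0 to 1 with single arrays left out. Lower ones numbered 0 without the filter, 0 with the filter at the 50th percentile, 3 centred on the tested genes, 4 with array weights and 0 with Xist, and 0 to 4 with single arrays left out. The 4 related genes called and the 3 called neighbours kept their direction in all 139 alternatives that gave them a value, and lost the call in 57. Signs turned for genes that did not pass. Got1 was at -0.10 with quantile normalization, -0.24 centred on the tested genes, -0.071 with array weights, -0.33 with the receptor median, and -0.16 to 0.20 with single arrays left out, below 0 without deleted replicate 3 or control replicate 2 or 3. Ezh2 (-0.12) and Gamt (-0.094) turned when centred on the tested genes, Gamt (-0.14) and Shmt2 (-0.090) with the receptor median, and Slc7a5 (0.078) when centred on all probe sets. The causes were not tested.

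No pairing of the tumours by replicate number was evident. The correlation of deviations from the group means of same-numbered arrays lay between -0.13 and 0.05. Of 4 deleted arrays 0 correlated best with the control of its number. With 4 arrays a group these values cannot exclude a pairing. With the replicate block 508 genes passed in place of 1013, and 2 related genes in place of 4. Signal near background limits the dimmer Ahcy probe set.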
